A study of Mus musculus with 59 samples.

Results

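Histone H4 is made in the mouse from many gene copies, and 10 of them were compared here in embryonic stem cells (ESCs) with and without Zcchc8: Hist1h4a, Hist1h4b, Hist1h4c, Hist1h4d, Hist1h4f, Hist1h4h, Hist1h4i, Hist1h4k, Hist2h4 and Hist4h4. They were taken by symbol from a table of 23974 genes, and all 10 had a mean of at least 10 normalised units over the 12 libraries, the minimum for testing. Hist1h4i was chosen by its measured values after the drug, since its RNA stayed high in the knockout after transcription was stopped with Actinomycin D. Its levels after the drug and its changes over time are therefore given as a description, with no test. The other 9 copies were tested.

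The cells were ESCs from BDF1 embryos, kept in serum medium with LIF and the inhibitors CHIR99021 and PD0325901. They were wild type (control) or Zcchc8 knockout (KO). Both genotypes received Actinomycin D, which blocks transcription, at 5 µg/ml for 0, 4 or 8 h, and each of the 6 groups held 2 libraries of total RNA depleted of ribosomal RNA, with ERCC spike-in RNA added. The labels do not say whether the replicates were separate cultures or whether the KO line was 1 clone, so the p-values reflect how far these libraries vary, and that variation may be technical.

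Histone mRNAs of this class are made in S phase, when DNA is copied. In place of a poly(A) tail they end just after a short stem-loop that the stem-loop binding protein holds, and they are degraded quickly when DNA synthesis stops. ZCCHC8 is the scaffold of the nuclear exosome targeting (NEXT) complex, which with RBM7 and the helicase MTR4 brings short and unprocessed nuclear transcripts to the RNA exosome.

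The copies are close to each other in coding sequence, which bears on how far their reads can be told apart. In the GENCODE vM21 transcripts (build GRCm38), 13 H4 copies matched the table, each with a coding sequence of 312 bases, and the 13 gave 1 translation. Between any 2 of the 10 copies, 8 to 46 of the coding bases differed (85.26% to 97.44% identity). Hist1h4i differed from the others at 13 bases (Hist1h4b and Hist1h4h) to 41 bases (Hist4h4). The first 60 coding bases of Hist1h4i are shown with those of Hist1h4b and of Hist4h4, with capitals where the base differs from Hist1h4i.
Hist1h4i: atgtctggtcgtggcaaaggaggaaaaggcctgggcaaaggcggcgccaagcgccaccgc
Hist1h4b: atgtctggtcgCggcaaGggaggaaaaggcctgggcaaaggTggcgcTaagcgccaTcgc
Hist4h4: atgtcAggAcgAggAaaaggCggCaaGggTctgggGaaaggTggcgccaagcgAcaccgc
In these 60 bases Hist1h4b carried 5 differences and Hist4h4 carried 11.

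The stem-loop is where these RNAs are processed and bound. It was found after the stop codon in 9 of the 10 copies, and the transcript model of Hist1h4k ends at its coding sequence. The stem-loop of 16 bases is in capitals, with 5 bases before it and 9 after it.
Hist1h4i: ttaaaGGCCCTTTTTAGGGCCaccacaaaa
Hist2h4: ctaacGGCCCTTTTTAGGGCCaaccacagt
Hist1h4a: ccaaaGGCCCTTCTCAGGGCCgcccacatt
Hist1h4b: caaaaGGTCCTTTTCAGGACCactcactga
Hist1h4h: ccaaaGGCCCTTTTCAGGGCCgcccacatt
Hist4h4: acaaaGGCCCTTTTCAGGGCCcacaaagca
The loop read TTTT in Hist1h4i and Hist2h4, TCTC in Hist1h4a, and TTTC in the other copies with a stem-loop. The stem of Hist1h4i was the one shared by most copies, and Hist1h4b differed in it. The 16 letters of the Hist1h4i stem-loop were also those of Hist2h4, and the bases around it differed. By 4 h Hist2h4 RNA fell to 2.36% and 3.99% of its 0 h level in control and KO. Any link between these letters and the level after the drug was not tested.

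Reads from a stretch that is the same in 2 copies cannot be placed. Of the 50-base windows of the Hist1h4i coding sequence, 70.34% occurred in at least 1 other gene. The share was 97.34% for Hist1h4b, 75.29% for Hist1h4a, 72.62% for Hist1h4h and 71.48% for Hist1h4k. It was 57.41% for Hist1h4c, 50.57% for Hist1h4f and 42.21% for Hist1h4d. Hist2h4, on chromosome 3, shared 6.08% and Hist4h4, on chromosome 6, shared 0%. The sources used here do not state how the authors' counting treated reads that match several copies, nor its strand setting, so levels of single chromosome 13 copies are uncertain. With 100-base windows the shares were lower, at 44.6% for Hist1h4i, 23.94% for Hist1h4f and 0% for Hist1h4d, and 96.71% for Hist1h4b. The read length is likewise not stated there. Hist1h4b also overlaps the gene 4930558J22Rik, which counted as another gene here. Its shares of 97.34% and 96.71% may thus include windows found only at its own locus. Hist1h4m and Hist1h4n, whose coding sequences are the same and whose 50-base windows were 100% shared, were listed at 0 in all 12 libraries.

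The libraries were shallow, with 465324 to 1364523 reads counted in each, and 1 read was worth 0.452 to 3.23 normalised units. In the first control library at 0 h Zcchc8 itself stood at 59.3 and in the second at 77.5, against 25.3 and 5.29 in the KO libraries (log2 difference -2.42, SE 0.68, adjusted p = 0.0332 by limma). DESeq2 called it as well (adjusted p = 0.0124) and edgeR did not (-2.13, adjusted p = 0.0795), and without the second KO library at 0 h it was not called (-1.39). At 4 and 8 h Zcchc8 differed by -0.71 and -0.53, which did not pass in limma, edgeR or DESeq2. Across all 6952 genes tested, the median log2 difference between KO and control was 0.44, 0.29 and 0.63 at 0, 4 and 8 h on the deposited scale, and 0.04, 0.04 and -0.05 after trimmed-mean (TMM) scaling, so an H4 difference is read against that offset. Of 9 tested ESC markers 0 were called between the genotypes at any time (limma). Nanog was listed at 0 in both control libraries at 0 h and Esrrb in all 12 libraries. Other genes, such as the S phase gene Mcm5, were at 0 throughout too, so a listed 0 may not mean absent RNA. On the deposited scale the unadjusted limma p was below 0.05 for 1, 0 and 2 of the 9 ESC markers, all higher, and edgeR and DESeq2 called 0. After TMM scaling the unadjusted limma p was below 0.05 for 1, 1 and 3 of them, all lower, so the direction depends on the scaling. Of 8 tested fibroblast markers 4, 0 and 0 were called higher in KO at 0, 4 and 8 h by limma. After TMM scaling the counts were 4, 2 and 0, and by DESeq2 4, 3 and 0. Of 3 tested neuroectoderm markers 2 were called higher at 0 h by limma, Sox1 (3.74) and Tubb3 (1.43). Among all genes limma called 4.23% higher at 0 h. Tubb3 was not called after TMM scaling, by edgeR or by DESeq2. The summed level of the 4 neuroectoderm markers at 0 h was 86.9 to 162 in control and 272 to 359 in KO, at 4 h 117 to 168 and 226 to 306, and at 8 h 90.3 to 108 and 131 to 193, with Pax6 at 0 throughout. The summed level of the 12 fibroblast markers was 5152 to 8437 in control and 12210 to 16098 in KO at 0 h, 7507 to 8984 and 15191 to 16498 at 4 h, and 6694 to 8312 and 9194 to 12017 at 8 h, with Postn and Pdgfrb at 0 throughout. The part of either cell type in any H4 result was not tested. In bulk RNA, fewer cells of a kind and less RNA per cell cannot be told apart.

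Hist1h4i lost most of its RNA in control cells and kept about as much as it lost in KO cells. In control its normalised values were 213 and 255 at 0 h, 10.2 and 12.4 at 4 h, and 11.3 and 8.58 at 8 h. In KO they were 495 and 518 at 0 h, 217 and 290 at 4 h, and 220 and 246 at 8 h. Both KO libraries lay above both control libraries at each of the 3 times, as they did for 37.3%, 37.0% and 55.3% of all genes tested. On the deposited scale the KO libraries after 8 h of drug stood near the untreated control libraries. After TMM scaling they stood above them, at 296 and 274 against 205 and 136. The level left after 4 h, as a percentage of the 0 h mean, was 4.81% in control and 50.0% in KO, and after 8 h it was 4.25% and 45.9%. From 4 to 8 h both genotypes were nearly flat on the deposited scale, with 88.4% left in control and 91.9% in KO. After TMM scaling both were higher at 8 h than at 4 h, at 163% and 121%, and control kept 7.36% of its 0 h level at 4 h and 12.0% at 8 h. TMM scaling takes out most of the general fall. The all-gene median log2 change from 4 to 8 h was -0.79 in control and -0.45 in KO on the deposited scale, and 0.0012 and -0.08 after it. Percentages left after TMM scaling, here and below, are thus relative to the other RNA of the library. These values rest on 14 to 21 reads per treated control library and 195 to 387 reads per treated KO library.

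Before the drug, the KO mean of Hist1h4i was 2.16 times the control mean. This was the only comparison of Hist1h4i that its selection left to test, and it did not pass (log2 difference 1.12, SE 0.40, adjusted p = 0.101 by limma). Over 20 alternative settings the log2 difference lay between 0.65 and 1.24 with adjusted p from 0.0343 to 0.428, and 2 settings called it, the replicate block and the fit without the second control library at 0 h (1.24, adjusted p = 0.0343). After 4 h the log2 difference was 4.36 (SE 0.40) and after 8 h it was 4.42 (SE 0.40), or 22.5 and 23.4 times the control mean. In normalised units the KO excess was 273 (SE 23.9) at 0 h, 242 (SE 36.4) at 4 h and 223 (SE 12.9) at 8 h. Between 0 and 4 h Hist1h4i fell by 223 units (SE 20.9) in control and fell by 253 units (SE 38.2) in KO. After TMM scaling the excess was 104, 223 and 265 units, and the KO level left was 85.8% at 4 h and 104% at 8 h, so the evenness of the excess holds on the deposited scale and not after TMM scaling. The log2 difference after the drug stayed large under both, at 4.12 and 3.78 after TMM scaling.

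**Figure D1:**
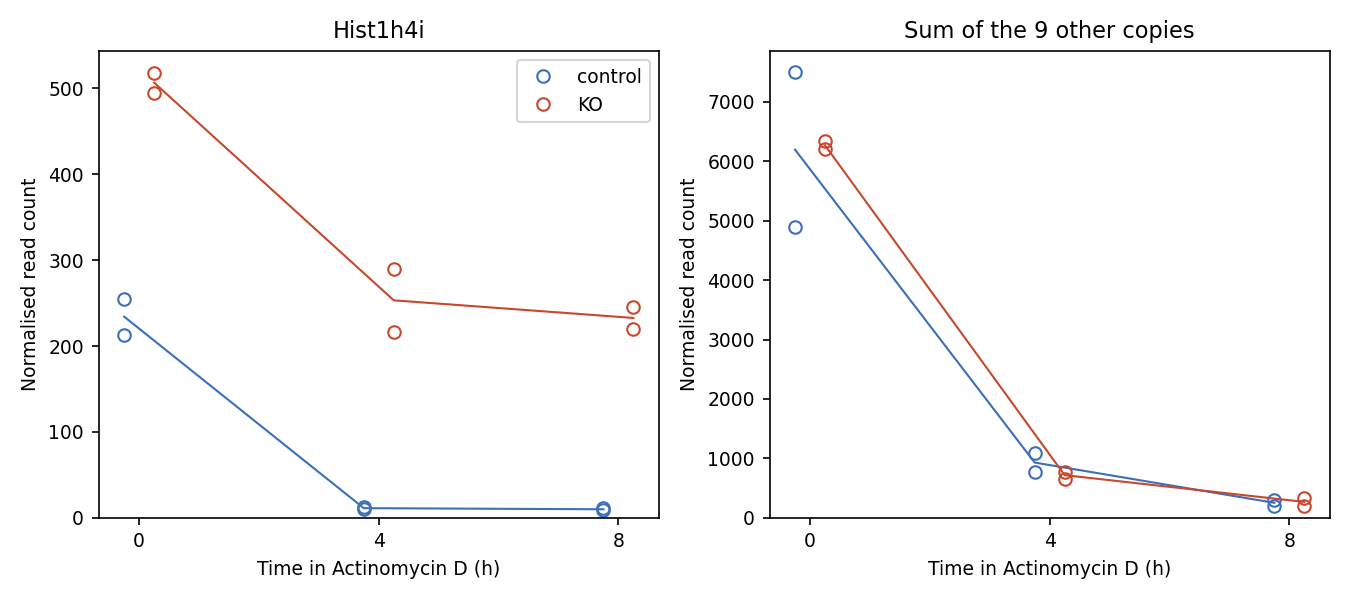
Normalised read count (linear axes) against hours in Actinomycin D for Hist1h4i (left) and for the sum of the 9 other H4 copies (right). Circles are libraries and lines join the means of 2 libraries; Hist1h4i in KO stays at 217 to 290 after the drug, whereas the summed other copies fall to means of 253 in control and 268 in KO by 8 h.

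The question was then which other copies did the same, and none of the 9 was called higher in KO at any time. By limma 0 of 9 were called higher and 0 lower at 0, 4 and 8 h, with lowest adjusted p of 0.402, 0.577 and 0.0676. At an unadjusted p below 0.05 the counts were 0, 0 and 2, the latter being Hist1h4k higher and Hist1h4f lower. By edgeR 0 of 9 were called at each time. By DESeq2 0 were called higher, while 2 were called lower at 4 h (Hist1h4a and Hist1h4k) and 1 at 8 h (Hist1h4f). Among all genes, limma called 4.23%, 0.748% and 4.88% higher in KO at the 3 times, and 0.0719%, 0% and 0.0144% lower. By edgeR the shares were 2.23%, 0.964% and 8.26% higher and 0.0288%, 0.0288% and 0.0144% lower, and by DESeq2 1.45%, 1.38% and 2.19% higher and 0.619%, 0.705% and 0.345% lower. The median log2 difference of the 9 was 0.20 at 0 h, -0.28 at 4 h and 0.19 at 8 h, below the all-gene medians given above each time. After TMM scaling it was -0.20, -0.52 and -0.49, with 0 of 9 called in either direction and 1, 4 and 3 copies lower at an unadjusted p below 0.05 (limma). On that scale 1.75%, 0.877% and 1.41% of all genes were called higher and 0.388%, 0.23% and 0.302% lower. On the deposited scale the differences of the 9 ran from -0.77 to 0.49 at 4 h and from -2.16 to 0.97 at 8 h. Both ranges were well short of the 4.36 and 4.42 of Hist1h4i on the same scale.

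**Figure D2:**
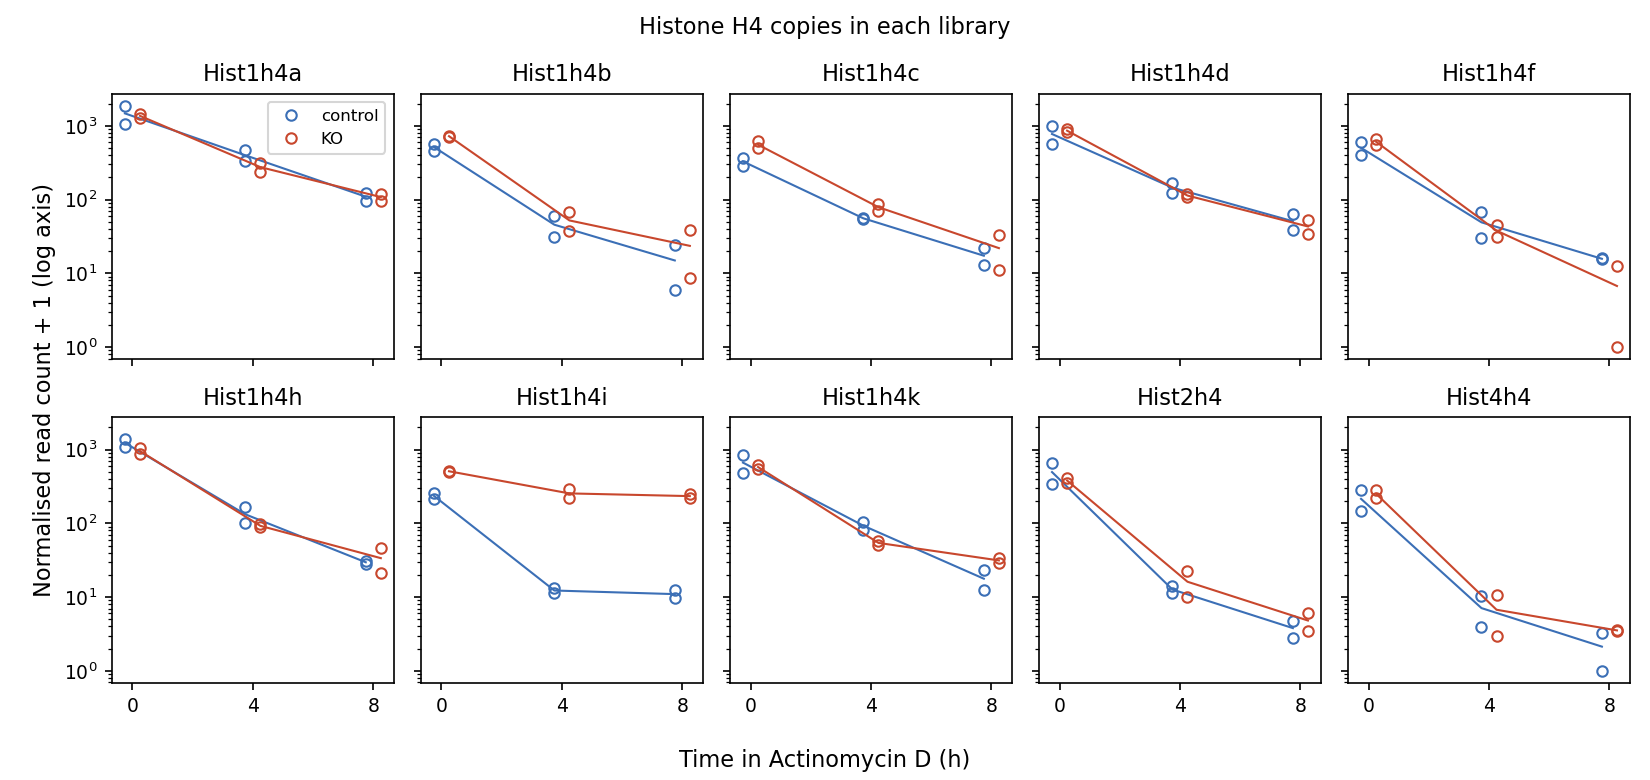
Normalised read count + 1 (log axis) of each of the 10 H4 copies against hours in Actinomycin D, with circles for libraries and lines joining the means of 2 libraries per genotype. The genotypes lie furthest apart in Hist1h4i, where all 4 treated KO libraries lie above 216 and all 4 treated control libraries below 13. In the 9 other copies the KO mean over the control mean runs from 0.58 to 1.42 at 4 h and from 0.39 to 2.24 at 8 h.

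Summed over the 9 other copies, the control libraries held 6195 ± 1838 units at 0 h, 930 ± 235 at 4 h and 253 ± 66.2 at 8 h (SD, n = 2). The KO libraries held 6269 ± 95.9, 718 ± 81.7 and 268 ± 90.6 (SD, n = 2). The libraries of the genotypes overlapped at each of the 3 times on this scale. After TMM scaling they did not, and the KO sums lay below the control sums, at 3292 and 3501 against 4700 and 3993 at 0 h, 669 and 674 against 967 and 1082 at 4 h, and 448 and 228 against 458 and 543 at 8 h. With Hist1h4i added, the means at 8 h were 263 in control and 501 in KO.

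In control cells all 9 other copies fell from 0 to 4 h, by 1.85 to 5.22 on the log2 scale (adjusted p at most 0.00154 by limma), where 11.8% of all genes were called lower. In KO all 9 fell as well, by 2.32 to 5.49 (adjusted p at most 0.000251), against 14.4% of all genes. After TMM scaling all 9 were again called lower in both genotypes, where 6.36% and 4.32% of all genes were. A median of 10.7% was left at 4 h in control (2.36% to 27.0%) and of 9.20% in KO (2.29% to 20.1%). At 8 h the median left was 2.71% in control (0.529% to 7.37%) and 3.43% in KO (0.945% to 7.86%). After TMM scaling these medians were 16.2% and 15.9% at 4 h, and 7.15% (1.41% to 21.4%) and 8.06% (2.30% to 18.1%) at 8 h. From 4 to 8 h 6 of the 9 fell in control (4.63% of all genes did), and 1 of 9 after TMM scaling (0.129% of all genes). In KO 0 of 9 were called over those hours by limma, 7 of 9 had an unadjusted p below 0.05, and 0.0288% of all genes were called lower. Hist1h4i in KO, at 50.0% and 45.9%, lay above each of them, and in control, at 4.81%, it lay between Hist4h4 and Hist1h4b.

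The test of whether a copy's change over time differed between genotypes called 0 of the 9, from 0 to 4 h and from 0 to 8 h, by limma, edgeR and DESeq2. Among all genes each tool called 1 of 6952 (0.0144%) higher for 0 to 4 h. For 0 to 8 h the 3 tools in turn called 1, 3 and 4 higher (0.0144%, 0.0432% and 0.0575%), and 0% were called lower. The genes counted here take in Hist1h4i. With so few genes called at all, a count of 0 among the 9 says little about the copies. At an unadjusted p below 0.05 in limma the counts were 0 and 1 (Hist1h4f). For 0 to 4 h the differences of the 9 ran from -0.62 to 0.55, with standard errors of 0.53 to 1.06. The value of Hist1h4i, given as a description, was 3.25 (SE 0.56). A copy that missed the threshold here is not shown to change alike in both genotypes.

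The slowest fall among the 9 was that of Hist1h4a. It stood at 1065 and 1880 in control at 0 h, 333 and 463 at 4 h, and 94.6 and 122 at 8 h. In KO it stood at 1437 and 1291, then 235 and 314, then 119 and 95.7. The KO libraries were both below the control libraries at 4 h, as for 8.7% of all genes tested, and overlapped them at 0 and 8 h. Its log2 differences of -0.06, -0.53 and -0.01 did not pass in limma. DESeq2, which scales the libraries its own way, called the one at 4 h (-0.83, adjusted p = 0.00576).

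On the deposited scale Hist1h4k was on different sides of control at 4 and 8 h. In control it stood at 485 and 843 at 0 h, 80.8 and 103 at 4 h, and 11.3 and 22.1 at 8 h. In KO it stood at 616 and 541, 49.3 and 57.2, and 28.0 and 32.7. It was thus lower in both KO libraries at 4 h, as were 8.7% of all genes tested, and higher in both at 8 h, as were 55.3%. Neither difference passed in limma (-0.77, adjusted p = 0.577, and 0.89, adjusted p = 0.193). DESeq2 called the one at 4 h (-1.07, adjusted p = 0.00863). The difference at 8 h was 0.22 after TMM scaling and 0.20 under DESeq2. After TMM scaling the libraries at 8 h overlapped, at 25.3 and 40.1 in control and 37.8 and 36.5 in KO.

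Hist1h4f was lower in KO at 8 h. In control it stood at 400 and 604 at 0 h, 29.1 and 67.2 at 4 h, and 14.6 and 14.9 at 8 h. In KO it stood at 552 and 661, 30.3 and 43.6, and 11.5 and 0, the last with 0 reads in the second KO library. The log2 difference at 8 h was -2.16 (SE 0.69, adjusted p = 0.0676 by limma). It rested on the library with 0 reads: without the other KO library at 8 h it was -3.98 and was called (adjusted p = 1.77e-07), and without the library with 0 reads it was -0.34 (adjusted p = 0.772).

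Hist1h4b and Hist1h4c were higher in both KO libraries before the drug, as were 37.3% of all genes tested. Hist1h4b stood at 457 and 572 in control and 734 and 711 in KO at 0 h, at 30.6 and 58.7 against 36.4 and 65.9 at 4 h, and at 4.86 and 23.0 against 37.6 and 7.56 at 8 h. Hist1h4c stood at 369 and 287 in control and 616 and 492 in KO at 0 h, at 55.3 and 54.1 against 86.9 and 68.8 at 4 h, and at 11.9 and 20.8 against 31.9 and 10.1 at 8 h. Hist1h4c was also higher in both KO libraries at 4 h, as were 37.0% of all genes, and at 8 h the libraries of both copies overlapped. After TMM scaling the libraries of both copies overlapped at 0 and 4 h. The log2 differences of Hist1h4b, 0.50, 0.20 and 0.61, did not pass at any time (adjusted p = 0.709, 0.963 and 0.488 by limma). The log2 differences of Hist1h4c, 0.76, 0.49 and 0.19, did not pass at any time (adjusted p = 0.402, 0.828 and 0.809 by limma).

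Hist1h4h was lower in both KO libraries at 0 and 4 h, as were 3.27% and 8.7% of all genes tested. It stood at 1072 and 1392 in control and 861 and 1047 in KO at 0 h, at 99.0 and 164 against 86.9 and 95.9 at 4 h, and at 27.0 and 30.3 against 45.3 and 20.2 at 8 h. Hist1h4d stood at 565 and 982 against 813 and 905, at 123.7 and 164.5 against 117 and 108, and at 37.8 and 61.9 against 51.6 and 32.7. Neither was called at any time by limma, edgeR or DESeq2.

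Hist2h4 and Hist4h4, the copies outside chromosome 13 and the ones that share the least sequence, fell furthest by 4 h in both genotypes. At 8 h in KO Hist1h4f had less left (0.945%) than Hist2h4 (1.00%) and Hist4h4 (1.01%). Hist2h4 stood at 336 and 652 in control and 349 and 411 in KO at 0 h, and at 10.2 and 13.1 against 8.97 and 21.3 at 4 h. At 8 h it was at 3.78 and 1.81 against 5.10 and 2.52. Hist4h4 stood at 146 and 281 against 222 and 279 at 0 h, at 2.91 and 9.27 against 9.53 and 1.94 at 4 h, and at 0 and 2.26 against 2.55 and 2.52 at 8 h. By 8 h these values rest on 0 to 8 reads per library. Neither copy was called between the genotypes at any time by limma, edgeR or DESeq2.

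Copies whose 2 KO libraries both lay beyond the control libraries were also counted. At 0 h 2 of 9 lay above and 1 below, at 4 h 1 above and 4 below, and at 8 h 2 above and 1 below. Among all genes tested, 37.3% were higher and 3.27% lower in this sense at 0 h, 37.0% and 8.7% at 4 h, and 55.3% and 2.86% at 8 h. The 4 lower copies at 4 h were Hist1h4a, Hist1h4d, Hist1h4h and Hist1h4k.

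Per transcript length, the order of the copies at 0 h was led by Hist1h4a, at 3237 ± 1266 units per 1000 bases in control and 2997 ± 227 in KO (SD, n = 2). Hist1h4h and Hist1h4d came next in both genotypes, at 2832 ± 520 and 1924 ± 733 in control and at 2193 ± 303 and 2137 ± 160 in KO. Hist1h4i was ninth in control, at 581 ± 73.4, and eighth in KO, at 1257 ± 40.7. Hist4h4 was last in both, at 487 ± 217 and 571 ± 90.6. In control, neighbours in the order overlapped in their libraries, other than Hist1h4h with Hist1h4d, Hist1h4b with Hist1h4c, and Hist1h4c with Hist1h4i. In KO Hist1h4i lay apart from its neighbours on both sides, Hist1h4k and Hist2h4. The lengths were those of RefSeq transcripts, 375 to 455 bases, which end close to the stem-loop.

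The make-up of the H4 reads changed with time and genotype. In control Hist1h4i gave 4.18% (95% interval 3.57 to 4.85) and 3.29% (2.62 to 4.09) of the reads of the 10 copies at 0 h. It gave 1.32% (0.721 to 2.20) and 1.11% (0.639 to 1.80) at 4 h, and 5.22% (3.26 to 7.87) and 2.79% (1.69 to 4.32) at 8 h. In KO it gave 7.39% (6.60 to 8.25) and 7.56% (6.75 to 8.44) at 0 h. It then gave 24.7% (22.6 to 26.9) and 27.2% (24.6 to 29.9) at 4 h, and 39.8% (36.6 to 43.2) and 54.6% (49.3 to 59.9) at 8 h. These exact Clopper-Pearson intervals cover counting error only. At each time the KO shares lay above the control shares, and at 8 h Hist1h4i was the most counted H4 copy in both KO libraries. A share within a library does not depend on the scaling between libraries.

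**Figure D3:**
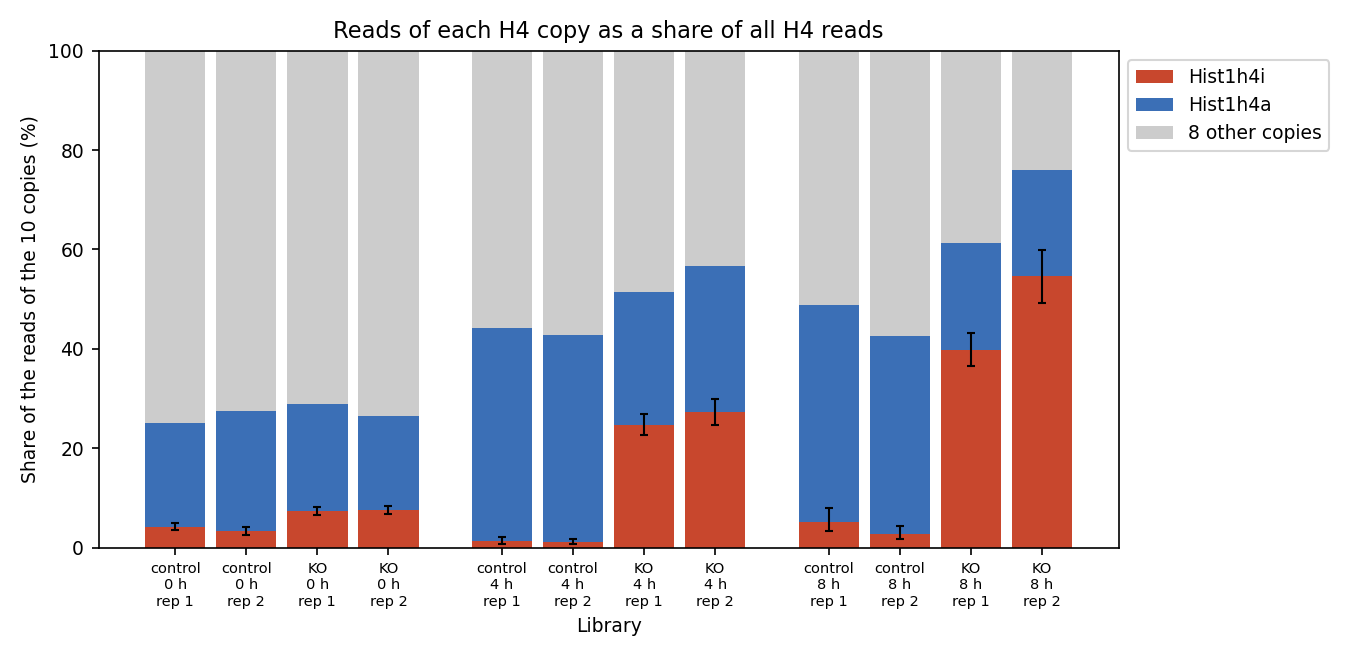
Share of the reads of the 10 H4 copies (%) in each of the 12 libraries, split into Hist1h4i, Hist1h4a and the 8 other copies; bars on Hist1h4i are 95% exact binomial intervals. Hist1h4i takes 1.11% to 5.22% of the reads in control libraries and rises to 39.8% and 54.6% in the KO libraries at 8 h.

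With Hist1h4i left out, Hist1h4a rose as a share in both genotypes. It gave a mean of 23.4%, 42.9% and 43.4% of the reads of the 9 in control at the 3 times, and of 21.8%, 38.0% and 41.3% in KO. Both KO shares lay above both control shares in 4, 3 and 2 of the 9 copies at 0, 4 and 8 h. They lay below in 2, 2 and 2. The next 4 cases were picked from these after their values were seen. At 0 h Hist1h4h gave 21.9% and 18.6% in control against 13.9% and 16.5% in KO. At 4 h Hist1h4c gave 7.24% and 4.93% against 13.2% and 8.86%. At 8 h Hist1h4f gave 7.09% and 4.98% against 3.45% and 0%, and Hist1h4k gave 5.51% and 7.39% against 8.45% and 16.0%. No test was made of these shares, and they are not independent, since a rise in the share of a copy lowers the rest. Over the 12 libraries, log2 values of the 9 correlated with each other with Pearson's r of 0.866 to 0.990 (36 pairs). The r of Hist1h4i with them was 0.356 to 0.595. Time in the drug is shared by all copies, so these r values are a description.

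Another H4 row, Hist1h4j, which lies outside the 10, moved like the 9. Its control values were 233 and 355 at 0 h, 13.8 and 11.6 at 4 h, and 2.16 and 4.07 at 8 h. Its KO values were 243 and 409, 8.97 and 19.4, and 4.46 and 2.52. At 4 h 4.32% was left in control and 4.35% in KO, and the log2 differences between genotypes, 0.13, 0.06 and 0.13, did not pass in limma.

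The annotated neighbours of Hist1h4i on chromosome 13, Hist1h2bk and Hist1h2ag, which encode histones H2B and H2A, fell in both genotypes. Hist1h2bk had means of 276, 19.0 and 3.70 in control at 0, 4 and 8 h and of 339, 19.6 and 6.01 in KO. Hist1h2ag had means of 78.9, 6.43 and 2.98 in control and of 133, 11.3 and 3.17 in KO. Neither gene was called between the genotypes at any time by limma. The log2 differences at 4 and 8 h were 0.09 and 0.81 for Hist1h2bk and 0.78 and 0.39 for Hist1h2ag, and the first and the last of these turned negative after TMM scaling (-0.14 and -0.01).

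Genes for the other replication-dependent histones (H1, H2A, H2B and H3) numbered 54, of which 40 were tested. In control 40 of 40 were called lower at 4 h than at 0 h by limma, beside 11.8% of all genes. In KO 39 of 40 were, beside 14.4% of all genes, and Hist1h2ad missed (-2.36, adjusted p = 0.161 by limma). Between genotypes 0 of 40 were called at 0 and 4 h, and 1 was called higher at 8 h. That gene was Hist1h3d, an H3 copy next to Hist1h4d, with a mean of 3.48 in control and 14.3 in KO (log2 difference 1.96, SE 0.56, adjusted p = 0.0310 by limma), and it was lost after TMM scaling (adjusted p = 0.174). This 1 of 40 stands beside the 4.88% of all genes called higher at 8 h. After TMM scaling 0 were called higher, and 1 and 2 were called lower at 4 and 8 h, where 0.23% and 0.302% of all genes were. EdgeR called 1 higher at 0 h and 1 at 8 h, and DESeq2 called 2 lower at 4 h and 1 at 8 h. The unadjusted limma p was below 0.05 for 0, 4 and 8 of the 40 at the 3 times. In KO the level left at 4 h ran from 0.196% to 19.1% with a median of 3.96%, and 0 of 40 reached that of Hist1h4i at 4 or at 8 h. In control 25 of 40 were at or above Hist1h4i at 4 h, and 3 of 40 at 8 h.

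**Figure D4:**
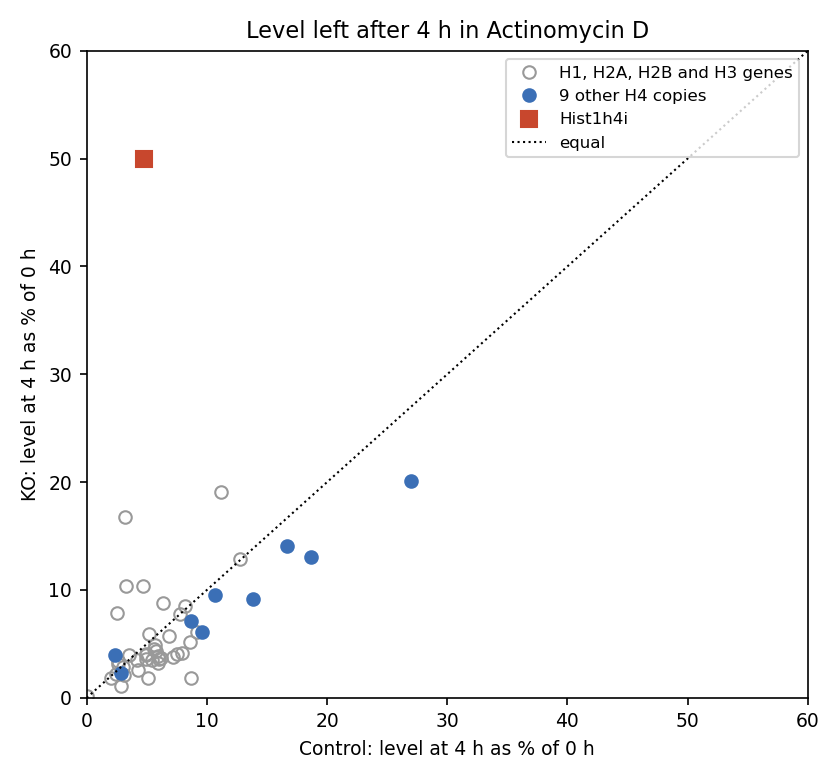
Level at 4 h as a percentage of the 0 h mean, control (horizontal) against KO (vertical), for Hist1h4i, the 9 other H4 copies and 40 other replication-dependent histone genes. Hist1h4i lies at 4.81% and 50.0%, while each other histone gene lies at or under 27.0% in control and 20.1% in KO.

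S phase and histone-processing genes gave the background for H4 supply. Of 18 S phase genes 11 were tested, and 0 were called between the genotypes at any time by limma, with median differences of 0.58, 0.38 and 0.79 at 0, 4 and 8 h beside all-gene medians of 0.44, 0.29 and 0.63. The unadjusted limma p was below 0.05 for 1, 1 and 5 of them, all higher, while edgeR called 1 higher at 8 h and DESeq2 called 0. Of 10 listed replacement histones, whose mRNAs are polyadenylated, 7 were tested and 0 were called by limma, edgeR or DESeq2, with 2, 0 and 3 higher at an unadjusted limma p below 0.05. H2afj, an H2A gene outside that list and an annotated neighbour of Hist4h4, was called higher in KO at 0 h (1.55, adjusted p = 0.0116) and 8 h (1.42, adjusted p = 0.0188) by limma, and missed at 4 h (1.35, adjusted p = 0.0861). Its means were 202, 201 and 154 in control and 572, 516 and 405 in KO. After TMM scaling its differences were 1.15, 1.10 and 0.72, and those at 0 and 4 h were called. DESeq2 called it at all 3 times, and edgeR at 0 and 8 h. Of 20 factors of histone mRNA 3′ end formation and decay 8 were tested, and Cnot6, a deadenylase subunit, was called higher in KO at 0 h (log2 difference 2.56, adjusted p = 0.0176 by limma). That call was lost after TMM scaling (2.14, adjusted p = 0.0517) and under DESeq2 (2.34, adjusted p = 0.0776). Slbp, which encodes the stem-loop binding protein, was listed at 0 in all 12 libraries. So were Upf1, Exosc10, Lsm10, Cstf2 and Srrt of the same factors, and the S phase genes Mcm5, Mcm6, Tyms and Fen1. A listed 0 may thus not mean absent RNA.

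Over the 12 libraries the genes whose log2 values were most like those of Hist1h4i were Brd2 (r = 0.983), Spata2l (0.979), 1700125G22Rik (0.972), Acrbp (0.961) and Pnpla1 (0.960), out of 6951 genes ranked. The 9 other H4 copies ranked from 3006 to 5638 in that order. Brd2, a bromodomain protein gene, had means of 44.9, 2.27 and 2.44 in control at 0, 4 and 8 h and of 115, 44.8 and 46.2 in KO. Spata2l had means of 41.7, 2.64 and 3.30 in control and of 102, 49.4 and 59.1 in KO. 1700125G22Rik was listed at 0 in all 4 treated control libraries and stood at 8.92 to 24.2 in the treated KO libraries. Like Hist1h4i, these genes were low in control after the drug and kept part of their level in KO. They were picked by that likeness over the same 12 libraries, so the shared pattern follows from the choice and is a description.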

How the data were processed

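The authors deposited 1 table of normalised read counts (signal values) per RefSeq transcript. Per the submitters' processing notes the tools were DESeq2, HTSeq 0.6.0 and TopHat2 2.1.1 on build mm9, with no settings stated. Of 59 samples 12 were used. The table held 0 spike-in rows and 0 unmatched sample columns. After 978 repeated rows were dropped, transcripts were summed by symbol. Every value (100%) was a whole multiple of 1 read to within 0.001 reads, so reads were recovered.

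The main test was limma 3.58.1 (R 4.3.3) on log2(value + 1), with trend and robust options, two-sided, over 6 group means. Benjamini-Hochberg adjustment covered all 6952 genes whose mean was 10 or more, and calls were made at an adjusted p below 0.05. Folds on this scale understate changes of low genes. Alternatives were edgeR 4.0.16 (quasi-likelihood) and DESeq2 1.42.0 on recovered reads, TMM scaling, pseudocounts of 0.5 and 5, no filter, a replicate block, the compared groups alone, and each library left out. On the recovered reads edgeR called 155 genes higher and 2 lower in KO at 0 h. The fit was tested on simulated counts.

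Sequences came from GENCODE vM21 (GRCm38), and no coordinates are given because the authors' build differs. Named genes were the H4 rows, Zcchc8, neighbours of the copies, called members of the lists, and the 5 genes most correlated with Hist1h4i. Members, lists and this rule were chosen with earlier results of these data known.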

Additional observations from a re-analysis of the deposited data

How the results depend on the processing

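Depth, 2 libraries per group and shared sequence limit what can be said of single copies. No copy other than Hist1h4i was called higher in KO under any of the 20 alternatives. The count called lower in KO was 2 at 4 h under DESeq2, and at 8 h it was 1 under DESeq2 and 0 to 1 when a library was left out. The count called lower from 4 to 8 h in control, 6 in the main test, was 1 after TMM scaling, 1 without the filter and 3 under DESeq2. That count also moved when a library was left out. In KO that count was 0, and it was 1 with a pseudocount of 5, 2 under DESeq2 and 0 to 5 when a library was left out. With a replicate block it was 4. The block also called Hist1h4i at 0 h (1.12, adjusted p = 0.0471 by limma). The labels do not say whether equal replicate numbers pair the samples. Of 15 pairs of groups 2 had correlated deviations above 0.1 (-0.07 to 0.117), which with 2 libraries per group cannot decide it. The count of copies whose change to 8 h differed between genotypes was 0 to 1 when a library was left out. The cause of these moves was not tested. Among the 9 copies the sign of the KO minus control difference changed under some alternative in 6 at 0 h, 4 at 4 h and 6 at 8 h. Signs also turned for Hist4h4 from 4 to 8 h in KO (0.27 without the first KO library at 4 h, and -1.57 to 0.27 with any library left out). For Hist1h2ag at 8 h they turned to -0.0116 after TMM scaling, -0.48 under DESeq2 and -0.64 without the first control library at 8 h (range with a library left out -0.64 to 1.42). For Hist1h2bk they turned at 4 h to -0.14 after TMM scaling, -0.25 under DESeq2, and -0.46 and -0.31 without single libraries (range -0.46 to 0.65), and at 8 h to -0.0596 under DESeq2 and -0.10 without the first control library (range -0.10 to 1.72).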
